A study of Mus musculus with 8 samples.

Results

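Stromal cells of the bone marrow hold and feed blood stem cells. The genes described here are 8 hematopoietic niche factors of such cells, with signal, adhesion, receptor and transcription factor genes among them: *Cxcl12*, *Kitl*, *Angpt1*, *Ptn*, *Vcam1*, *Lepr*, *Foxc1* and *Ebf3*. They were chosen by symbol, with earlier results of these data known. All 8 were found among the 24346 genes of the expression table and passed the filter on low values, which kept 15342 genes. RNA was sequenced from mesenchymal stem/stromal cells (MSCs) of the bone marrow of adult female C57BL/6 mice, either wild type (WT) littermates or *Dnmt3l* KO mice homozygous for the tmEnls allele of *Dnmt3l*. The cells of several mice of a genotype were mixed, were depleted of CD11b and CD45 positive cells, and were at passage 4 in all 4 groups. Undifferentiated (Un) MSCs were kept in growth medium with 20% FBS, and differentiating (D) MSCs had 3 days in osteogenic medium with 10% FBS, 0.1 µM dexamethasone, 10 mM β-glycerophosphate and 50 µM ascorbic acid 2-phosphate. Serum, dexamethasone and the other additives changed together, so their parts in a change with induction cannot be told apart. Each group had 2 libraries. The sources do not say if these 2 libraries were separate mixes of mice, so that p-values measure the spread between these libraries, which may be technical.

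In the marrow, perivascular reticular stromal cells, many of which carry the leptin receptor, are a main source of the factors that keep blood stem cells in place and alive. CXCL12 holds these cells through the receptor CXCR4, stem cell factor (the product of *Kitl*) acts on the receptor KIT, angiopoietin 1 acts on TIE2 (the product of *Tek*), and VCAM1 is an adhesion molecule bound by the integrin VLA-4. Pleiotrophin is a secreted growth factor, while FOXC1 and EBF3 are transcription factors known to keep reticular cells in their niche state. DNMT3L is a cofactor of the de novo DNA methyltransferases and has no methyltransferase activity of its own.

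The *Dnmt3l* level was 1.56 and 1.09 RPKM in the undifferentiated WT libraries and 0.845 and 0.830 RPKM in the differentiating ones, and *Dnmt3l* was listed at 0 in all 4 KO libraries. By the study's account the WT reads lie on the later exons of the gene and the canonical protein was not detected, so that these are not levels of the full-length transcript. RPKM is a level scaled to transcript length and to the reads of the library, so that levels of different genes can be set side by side. Depth was 47.9 to 66.8 M scaled reads per library, as judged from the steps in which low values rise. Of the listed MSC genes, 10 of 10 were at 1 RPKM or more in every library. That goes with the labelled cell type but does not by itself identify the cells. Macrophage and leukocyte genes remained at a low level, and most of them, but not all, were lower in KO. The summed level of 13 such genes was 22.3 and 23.5 RPKM in undifferentiated WT libraries, 10.4 to 11.3 RPKM in undifferentiated KO, 38.8 and 45.2 RPKM in differentiating WT, and 15.1 to 16.3 RPKM in differentiating KO. Much of these sums was 1 gene, *Lyz2*, at 12.85 and 13.4 RPKM in undifferentiated WT and 3.43 and 3.19 in undifferentiated KO libraries. In differentiating libraries *Lyz2* was at 22.9 and 26.45 RPKM in WT and 6.81 and 7.66 in KO. *Cd14* went the other way, at 1.23 and 1.47 RPKM in undifferentiated WT and 2.59 and 2.18 in undifferentiated KO libraries. After induction *Cd14* was at 3.48 and 3.43 RPKM in WT and 4.67 and 4.90 in KO. 1 of the 13 was at 0 in each undifferentiated KO library. *Ptprc*, the pan-leukocyte gene, was at most 0.127 RPKM in any library. In these bulk samples, fewer cells of a type and less RNA per cell cannot be told apart.

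Induction raised nearly the whole group of niche factors. In WT MSCs 7 of 8 rose and *Ptn* fell, and in KO MSCs 8 of 8 rose, at an adjusted p under 0.05 (limma with Benjamini-Hochberg adjustment over all tested genes, as for every adjusted p given here). Of all tested genes, 31.6% rose and 32.8% fell in WT. In KO 36.4% rose and about as many fell, since 5577 of the 11186 genes that passed rose. A rise over 2-fold as well was met by 4 members in WT (*Kitl*, *Cxcl12*, *Angpt1* and *Ebf3*), against 9.69% of all genes, and by 5 members in KO, with *Vcam1* added, against 13.0% of all genes. The median log2 fold change of the 8 members was 1.08 in WT and 1.47 in KO, and the median of all genes was near 0 in both. The libraries of the compared states did not overlap for any of the 8 members in either genotype, which also held for 83.4% of all genes in WT and 85.4% in KO. The counts of members that passed were the same with each library left out in turn, while with quantile normalization *Lepr* did not pass in WT (adjusted p = 0.0675).

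**Figure D1:**
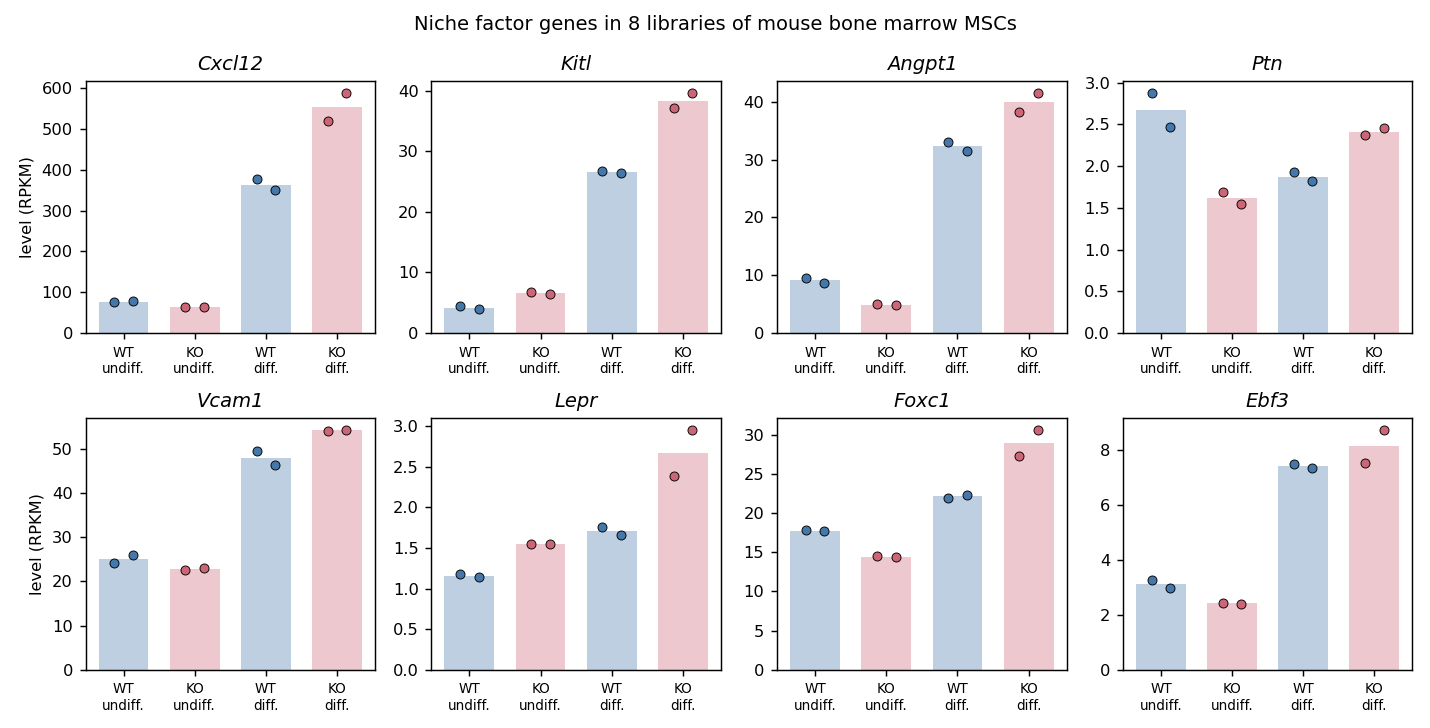
Levels of the 8 niche factor genes in RPKM on linear axes that start at 0, in undifferentiated (undiff.) and differentiating (diff.) WT and *Dnmt3l* KO MSCs. Points are the 2 libraries of a group, with replicate 1 on the left, and bars are their means; *Cxcl12* reached 588 RPKM in a differentiating KO library, and *Ptn* was highest in undifferentiated WT libraries.

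In *Dnmt3l* KO MSCs most niche factors stood lower than in WT before induction, and most stood higher after it. In undifferentiated MSCs 5 of 8 members were lower in KO (*Angpt1*, *Ptn*, *Ebf3*, *Foxc1* and *Cxcl12*), 2 were higher (*Kitl* and *Lepr*) and *Vcam1* did not pass, while 17.5% of all genes were lower and 14.7% higher. In differentiating MSCs 7 of 8 were higher in KO, 0 were lower and *Ebf3* did not pass, while 17.8% of all genes were higher and 22.9% lower. None of these differences was over 2-fold, a limit that 1.70% of all genes passed in undifferentiated and 3.30% in differentiating MSCs in either direction. The median log2 fold change of the members between KO and WT was -0.28 in undifferentiated and 0.37 in differentiating MSCs, with medians of all genes near 0. In both states the 2 KO libraries did not overlap the 2 WT libraries for any of the 8 members. That was common, since it held for 71.8% of all genes in undifferentiated and 70.9% in differentiating MSCs. The genotype comparisons share their libraries with the induction comparisons.

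These differences were small, and the counts depended on single libraries. Without any 1 of the 4 undifferentiated libraries, the members that passed as lower fell to 2, *Angpt1* and *Ptn*, and *Kitl* was the 1 member that passed as higher. Without replicate 1 or replicate 2 of differentiating WT, *Lepr* also missed the test in undifferentiated MSCs (adjusted p = 0.0625 and 0.0635). In differentiating MSCs 4 members passed without replicate 2 of WT and likewise without replicate 2 of KO, namely *Cxcl12*, *Kitl*, *Lepr* and *Foxc1*. No member changed its direction with any library left out.

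**Figure D2:**
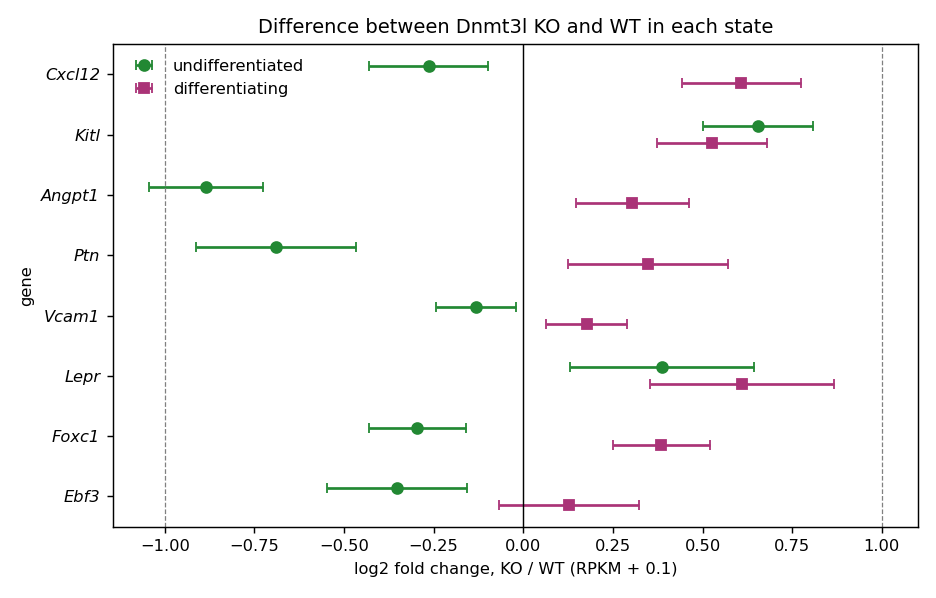
Log2 fold change of KO over WT for the 8 niche factor genes, with undifferentiated MSCs as circles and differentiating MSCs as squares. Bars are 95% confidence intervals of the limma fit and dashed lines mark 2-fold; 6 of 8 circles lie below 0, all 8 squares lie above 0, and *Kitl* and *Lepr* are above 0 in both states.

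4 members, *Cxcl12*, *Angpt1*, *Ptn* and *Foxc1*, passed as lower in undifferentiated KO and as higher in differentiating KO, a pattern found in 4.97% of all tested genes. *Kitl* and *Lepr* passed as higher in both states, as did 2.9% of all genes. Of these genes, all but *Kitl* lost 1 of the 2 calls when some single libraries were left out, as given for each gene below. The opposite crossing, higher before and lower after induction, was found in 5.16% of all genes and in 0 members. A direct test of whether the genotype difference changed with the state (the interaction, which is also the difference between the genotypes in their change with induction) passed for 6 of 8 members, all in the higher direction, against 19.4% of all genes. A value over 2-fold as well was reached by 2 members, *Angpt1* and *Ptn*, against 2.76% of all genes. *Ptn* was not over 2-fold without replicate 1 of undifferentiated WT, replicate 2 of differentiating WT or replicate 2 of undifferentiated KO, which left 1 member.

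*Cxcl12*, the chemokine that retains blood stem cells, lies at chr6:117168535-117181367 on the plus strand of mm10 and had the highest level of the 8 in every library. It stood at 75.6 and 78.3 RPKM in undifferentiated WT, 63.2 and 64.9 in undifferentiated KO, 377 and 350 in differentiating WT, and 520 and 588 in differentiating KO libraries. The KO libraries were thus the lowest of all before induction and the highest of all after it. Its mean level passed that of 92.5% of the tested genes in undifferentiated WT and 98.9% in differentiating KO. Induction raised it 4.71-fold in WT (log2 fold change 2.24 ± 0.07, SE, adjusted p = 2.93e-06) and 8.62-fold in KO (3.11 ± 0.07, adjusted p = 5.3e-07). KO was higher than WT by 0.61 ± 0.07 on the log2 scale in differentiating MSCs (adjusted p = 0.00192). The interaction was 0.87 ± 0.10 (adjusted p = 0.00177). In undifferentiated MSCs KO was lower (-0.26 ± 0.07 on the log2 scale, adjusted p = 0.0311), a call that was lost without any 1 of the 4 undifferentiated libraries, with adjusted p between 0.0873 and 0.144, and with quantile normalization (adjusted p = 0.0739).

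*Kitl*, the gene of stem cell factor (chr10:100015630-100100416, plus strand), was higher in KO in both states. Its level was 4.40 and 3.95 RPKM in undifferentiated WT, 6.79 and 6.45 in undifferentiated KO, 26.8 and 26.4 in differentiating WT, and 37.1 and 39.6 in differentiating KO libraries. All KO libraries lay above the WT libraries of the same state. The log2 fold change of KO over WT was 0.65 ± 0.06 before induction (adjusted p = 0.00142) and 0.53 ± 0.06 after it (adjusted p = 0.00226). Induction raised *Kitl* 6.26-fold in WT, where it had the largest log2 fold change of the 8 members (2.65 ± 0.06, adjusted p = 1.33e-06), and 5.72-fold in KO (2.52 ± 0.06, adjusted p = 7.71e-07). The interaction did not pass (-0.13 ± 0.09, adjusted p = 0.297), with a 95% confidence interval of -0.34 to 0.09.

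*Angpt1*, the gene of angiopoietin 1 (chr15:42424723-42676977, minus strand), had the largest genotype difference of the 8 in undifferentiated MSCs. Its level was 9.58 and 8.69 RPKM in undifferentiated WT, 5.01 and 4.79 in undifferentiated KO, 33.1 and 31.5 in differentiating WT, and 38.3 and 41.5 in differentiating KO libraries. KO was at 0.542 times the WT level before induction (log2 fold change -0.88 ± 0.06, adjusted p = 0.000649), and 2.35% of all tested genes had a lower fold change. After induction KO was higher by 0.30 ± 0.06 on the log2 scale (adjusted p = 0.0136). This later call was lost without replicate 2 of differentiating WT (adjusted p = 0.0826) or replicate 2 of differentiating KO (adjusted p = 0.0632). The rise with induction was 3.51-fold in WT (log2 fold change 1.81 ± 0.06, adjusted p = 4.85e-06) and 8.0-fold in KO (3.00 ± 0.06, adjusted p = 5.2e-07), and the interaction of 1.19 ± 0.09 was the largest of the 8 (adjusted p = 0.000786).

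The ratio of *Angpt1* to *Kitl* levels within a library put these opposite differences side by side. It was 2.18 and 2.2 in undifferentiated WT and 0.738 and 0.742 in undifferentiated KO libraries, so that the order of these ligands was reversed between the genotypes. After induction the ratio was 1.23 and 1.19 in WT and 1.03 and 1.05 in KO libraries. The ratio of *Cxcl12* to *Kitl* was 17.2 and 19.8 in undifferentiated WT, 9.31 and 10.1 in undifferentiated KO, 14.1 and 13.2 in differentiating WT, and 14.0 and 14.8 in differentiating KO libraries. For *Cxcl12* and *Kitl* the genotypes were apart before induction and overlapped after it. The ratios are descriptions and were not tested.

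**Figure D3:**
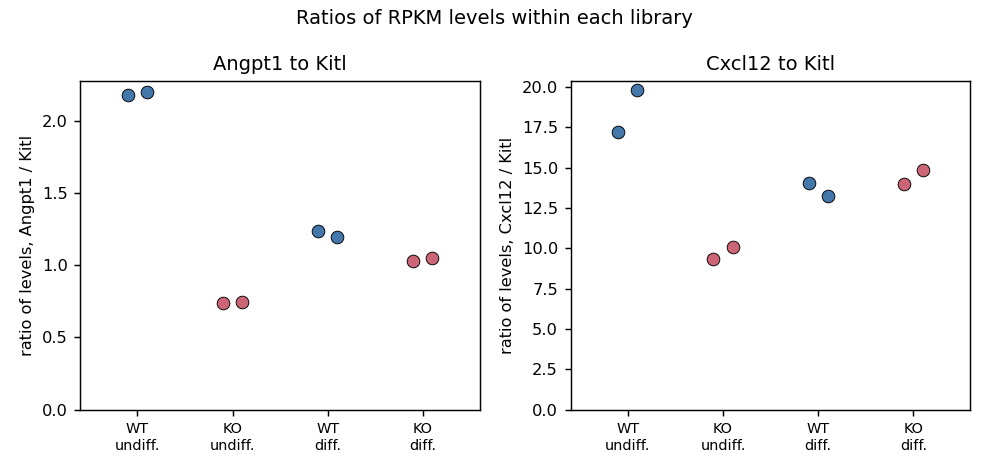
Ratio of the RPKM level of *Angpt1* (left) or *Cxcl12* (right) to that of *Kitl* within each library, on linear axes that start at 0. Points are the 2 libraries of each group, replicate 1 on the left; the *Angpt1* to *Kitl* ratio was above 2 in both undifferentiated WT libraries and below 1 in both undifferentiated KO libraries.

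*Ptn*, the gene of pleiotrophin (chr6:36714929-36810220, minus strand), moved in opposite directions with induction in the genotypes. Its level was low, at 2.88 and 2.46 RPKM in undifferentiated WT, 1.69 and 1.54 in undifferentiated KO, 1.93 and 1.82 in differentiating WT, and 2.37 and 2.45 in differentiating KO libraries. The undifferentiated WT libraries were the highest and the undifferentiated KO libraries the lowest. With induction *Ptn* fell in WT (log2 fold change -0.48 ± 0.09, adjusted p = 0.00419) and rose in KO (0.55 ± 0.09, adjusted p = 0.00182), and the interaction was 1.04 ± 0.13 (adjusted p = 0.0025). KO was lower than WT before induction (-0.69 ± 0.09, adjusted p = 0.0039). In differentiating MSCs KO was higher by 0.35 ± 0.09 (adjusted p = 0.0271), but not without any 1 of the 4 differentiating libraries (adjusted p between 0.064 and 0.131). An estimated 179 to 332 reads, taken with the longest annotated transcript, stood behind a value of *Ptn*, the fewest of the 8 members. For the lowest value this gives a counting error of 7.47%.

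*Vcam1*, the adhesion molecule (chr3:116109949-116129688, minus strand), had the second highest level in every group and the smallest genotype difference among those that passed. It stood at 24.3 and 25.9 RPKM in undifferentiated WT, 22.7 and 23.1 in undifferentiated KO, 49.6 and 46.5 in differentiating WT, and 54.1 and 54.4 in differentiating KO libraries. Induction raised it 1.91-fold in WT (log2 fold change 0.93 ± 0.05, adjusted p = 1.52e-05) and 2.36-fold in KO (1.24 ± 0.05, adjusted p = 2.94e-06). The undifferentiated genotype difference did not pass (-0.13 ± 0.05, adjusted p = 0.0754), with a 95% confidence interval of -0.24 to -0.02. In differentiating MSCs KO was higher by 0.18 ± 0.05 (adjusted p = 0.0257). That call was lost without replicate 2 of differentiating WT (adjusted p = 0.126), without either differentiating KO library (0.0653 and 0.0857) and without either undifferentiated KO library (0.0504 and 0.0509). The interaction of 0.31 ± 0.06 (adjusted p = 0.0133) was lost without replicate 1 of undifferentiated KO (adjusted p = 0.0531). Macrophages also make *Vcam1*. Of the 11 tested macrophage and leukocyte genes, 7 were lower and 2 higher in undifferentiated KO, against 17.5% and 14.7% of all genes. In differentiating KO, where *Vcam1* was higher, 10 were lower and 1 higher, against 22.9% and 17.8% of all genes. With induction 9 of the 11 rose and 2 fell in WT, where 31.6% of all genes rose. In KO 5 rose and 2 fell, where 36.4% of all genes rose and about as many fell. The part of these cells in the *Vcam1* values was not tested.

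*Lepr*, the leptin receptor by which marrow reticular cells are recognised (chr4:101717404-101815352, plus strand), was at 1.19 and 1.14 RPKM in undifferentiated WT, 1.55 and 1.54 in undifferentiated KO, 1.76 and 1.65 in differentiating WT, and 2.39 and 2.96 in differentiating KO libraries. It was among the lowest of the 8 members in every group. KO libraries were above WT libraries in both states, with log2 fold changes of 0.39 ± 0.10 before induction (adjusted p = 0.0368) and 0.61 ± 0.10 after it (adjusted p = 0.00694). The undifferentiated call was lost without any 1 of the undifferentiated libraries (adjusted p between 0.102 and 0.149). Induction raised *Lepr* by 0.52 ± 0.10 in WT (adjusted p = 0.00567) and by 0.74 ± 0.10 in KO (adjusted p = 0.000875). With quantile normalization the WT rise was 0.26 and missed the test (adjusted p = 0.0675), as did the undifferentiated genotype difference (0.32, adjusted p = 0.0633). The interaction did not pass (0.22 ± 0.15, adjusted p = 0.28), with a 95% confidence interval of -0.14 to 0.59, although it did without replicate 1 of differentiating KO (0.37, adjusted p = 0.0377), the lower of the differentiating KO libraries.

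Both transcription factors were lower in KO before induction and rose with it in both genotypes. *Foxc1* (chr13:31806633-31812476, plus strand) was at 17.8 and 17.6 RPKM in undifferentiated WT, 14.5 and 14.3 in undifferentiated KO, 21.9 and 22.3 in differentiating WT, and 27.3 and 30.6 in differentiating KO libraries. Its rise with induction was small in WT (log2 fold change 0.32 ± 0.06, adjusted p = 0.00305) and just under 2-fold in KO (0.998 ± 0.06, adjusted p = 1.34e-05), with an interaction of 0.68 ± 0.08 (adjusted p = 0.00198). KO was higher than WT after induction by 0.38 ± 0.06 (adjusted p = 0.00386). Before induction it was lower (-0.30 ± 0.06, adjusted p = 0.0114), which did not pass without any 1 of the undifferentiated libraries (adjusted p between 0.058 and 0.0677).

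*Ebf3* (chr7:137193673-137314445, minus strand) was at 3.26 and 2.98 RPKM in undifferentiated WT, 2.43 and 2.40 in undifferentiated KO, 7.49 and 7.34 in differentiating WT, and 7.53 and 8.73 in differentiating KO libraries. Both genotypes more than doubled it, with log2 fold changes of 1.23 ± 0.08 in WT (adjusted p = 4.79e-05) and 1.70 ± 0.08 in KO (adjusted p = 7.09e-06). KO was lower before induction (-0.35 ± 0.08, adjusted p = 0.021), a call lost without any 1 of the undifferentiated libraries (adjusted p between 0.0523 and 0.0993). After induction the genotypes did not differ by the test (0.13 ± 0.08, adjusted p = 0.252, 95% confidence interval -0.07 to 0.32), but did without replicate 1 of differentiating KO (adjusted p = 0.0471). The interaction of 0.48 ± 0.11 (adjusted p = 0.0196) did not pass without replicate 1 of undifferentiated WT (0.0629), without either differentiating WT library (0.0536 and 0.0686) or without either undifferentiated KO library (0.0593 and 0.065).

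**Figure D4:**
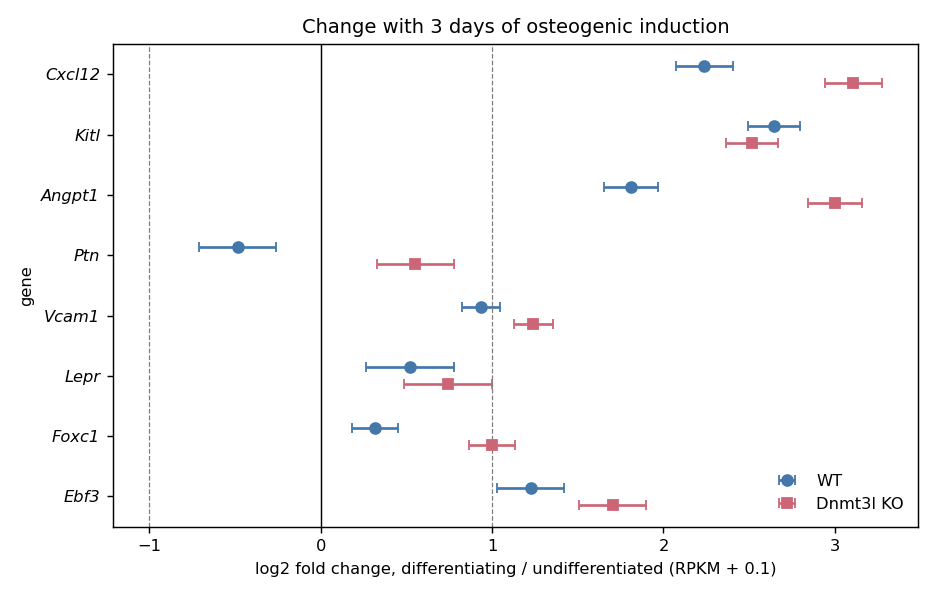
Log2 fold change of differentiating over undifferentiated MSCs for the 8 niche factor genes, with WT as circles and *Dnmt3l* KO as squares. Bars are 95% confidence intervals of the limma fit and dashed lines mark 2-fold; *Cxcl12* and *Angpt1* rose more in KO than in WT, *Kitl* had overlapping intervals, and *Ptn* lies below 0 in WT and above 0 in KO.

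Ordered by level per length, undifferentiated WT libraries had *Cxcl12*, *Vcam1*, *Foxc1*, *Angpt1*, *Kitl*, *Ebf3*, *Ptn* and *Lepr*, and the ranges of neighbours in this order did not overlap. Undifferentiated KO libraries had *Kitl* above *Angpt1*, and *Ptn* and *Lepr* overlapped there. With induction *Angpt1* and *Kitl* moved above *Foxc1* in both genotypes. In differentiating KO libraries *Angpt1* overlapped *Kitl*, and *Lepr* overlapped *Ptn*, so that the order within these pairs could not be given.

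Since *Dnmt3l* bears on DNA methylation, the sequence before the start of a member is of interest for its CpG dinucleotides, although methylation was not measured in these libraries. RefSeq promoters of mm10 were matched for 6 of 8 members, with an entry for each of 2 start sites of *Lepr*. *Angpt1* and *Vcam1* had no entry. The 250 bases before the start held 14 CpGs in *Cxcl12*, 23 in *Kitl*, 5 in *Ptn*, 10 at each start of *Lepr*, 29 in *Foxc1* and 43 in *Ebf3*, against a median of 6 and quartiles of 2 and 16 over 32807 promoters. *Ptn* alone was below that median, and *Kitl*, *Foxc1* and *Ebf3* were above the upper quartile. For *Kitl*, 59 of these bases, with 3 of the 23 CpGs, lie before the first exon base of the GENCODE annotation, and the rest lie within the annotated gene. The members with the fewest and the most CpGs and *Cxcl12*, the member with the highest level, are shown 5′ to 3′ on the strand of the gene, with CpGs in capitals, each ending before the first annotated exon base, which leaves 209 bases with 3 CpGs for *Ptn*:
*Cxcl12*, chr6:117168285-117168534, plus strand, 14 CpGs: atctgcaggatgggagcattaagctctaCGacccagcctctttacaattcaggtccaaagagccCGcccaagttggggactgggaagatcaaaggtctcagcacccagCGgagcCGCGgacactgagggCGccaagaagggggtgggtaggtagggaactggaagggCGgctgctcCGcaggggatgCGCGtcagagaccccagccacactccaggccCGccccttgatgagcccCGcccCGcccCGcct
*Ptn*, chr6:36810221-36810429, minus strand, 3 CpGs: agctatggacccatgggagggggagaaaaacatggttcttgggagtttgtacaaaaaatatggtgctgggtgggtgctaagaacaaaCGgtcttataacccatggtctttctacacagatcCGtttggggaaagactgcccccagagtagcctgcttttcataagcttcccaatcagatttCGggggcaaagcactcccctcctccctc
*Ebf3*, chr7:137314446-137314695, minus strand, 43 CpGs: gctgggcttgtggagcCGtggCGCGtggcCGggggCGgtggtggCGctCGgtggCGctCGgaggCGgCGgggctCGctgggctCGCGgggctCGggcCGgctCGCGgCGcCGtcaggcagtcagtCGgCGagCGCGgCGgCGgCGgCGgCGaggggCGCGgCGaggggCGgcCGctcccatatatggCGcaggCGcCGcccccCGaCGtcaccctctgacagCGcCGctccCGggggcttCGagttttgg
Of the 6 members with a promoter entry, *Ptn*, *Cxcl12*, *Foxc1* and *Ebf3* passed as lower in undifferentiated KO, and *Lepr* and *Kitl* as higher. A relation of CpG number to the genotype difference was not tested.

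Short motifs were searched on both strands of the same 250 bases. CCCNNGGG, the core bound by EBF factors, was in the promoters of *Ptn*, 241 bases before the start, and of *Ebf3* itself, 21 bases before it, and in 11.8% of all promoters. The TATA box TATAAA was in that of *Kitl*, 25 bases before the RefSeq start and within the gene as GENCODE annotates it, and in 12.4% of all promoters. CANNTG, the E-box, was at 3 places before the upstream start of *Lepr* and in 66.2% of all promoters. Neither TAAACA, a forkhead core (12.0% of all promoters), nor ACANNNTGT, a glucocorticoid receptor palindrome (5.84%), was found before any of the starts. Matches of these letters are descriptions of the sequence and not sites of binding.

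Of 19 receptors and partners of the niche factors 13 were tested. *Cxcr4*, a receptor of CXCL12, and *Kit*, that of stem cell factor, were below the filter, at no more than 0.206 and 0.305 RPKM in any library, whereas *Ackr3*, another receptor of CXCL12, was at 29.8 to 49.0 RPKM (these 3 were named after their values were seen). With induction 5 of the 13 rose and 6 fell in WT, against 31.6% and 32.8% of all genes. In KO 7 rose and 5 fell, where 36.4% of all genes rose and about as many fell. *Tek*, the receptor of angiopoietin 1, was at 0.583 and 0.686 RPKM in undifferentiated WT, 0.358 and 0.443 in undifferentiated KO, 2.35 and 1.93 in differentiating WT, and 3.62 and 4.13 in differentiating KO libraries. Like *Angpt1*, *Tek* was lower in KO before induction (log2 fold change -0.55, adjusted p = 0.0334) and higher after it (0.83, adjusted p = 0.00735), with an interaction of 1.39 (adjusted p = 0.0043). *Tek* is also an endothelial gene. The other 9 endothelial genes had a summed level of 1.11 to 1.14 RPKM in undifferentiated WT and 1.43 to 1.62 in undifferentiated KO libraries. Their sum was 1.17 to 1.37 RPKM in differentiating WT and 0.950 to 1.05 in differentiating KO libraries. Single genes in this sum moved apart with induction. *Kdr* rose (log2 fold change 1.98 in WT and 1.48 in KO), and *Esam* fell (-1.07 and -1.81). *Pecam1* and *Cdh5* were below 0.1 RPKM in every library. *Angpt2*, a ligand that competes with angiopoietin 1, rose by 2.63 in WT and 2.65 in KO on the log2 scale and was higher in KO in both states. *Ptprz1*, a receptor of pleiotrophin, fell by 2.21 in WT and by 1.71 in KO, and its interaction did not pass (0.50, adjusted p = 0.183). It was at 0.688 and 0.696 RPKM in undifferentiated WT and 0.408 and 0.3175 in undifferentiated KO libraries. In every differentiating library *Ptprz1* was below 0.1 RPKM, the amount added before taking log2, which makes both falls smaller on this scale. *Itgb7*, a partner chain of the integrin α4, had a KO over WT log2 fold change of 1.05 before induction (adjusted p = 0.00424).

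Other niche signals did not move as 1 group. Of 20 genes, 10 rose and 6 fell in WT with induction, against 31.6% and 32.8% of all genes. In KO 10 rose and 8 fell, where 36.4% of all genes rose and about as many fell. *Il15* (log2 fold change 2.50 in WT and 2.81 in KO) and *Igf1* (2.09 and 3.34) rose, and the cytokines *Il6* (-3.89 and -3.92) and *Lif* (-2.61 and -2.47) fell. *Igf1*, a growth factor gene, was lower in undifferentiated KO (-1.30, adjusted p = 0.000475), with an interaction of 1.25 (adjusted p = 0.00122). In KO against WT, 4 of the 20 were higher and 9 lower before induction, against 14.7% and 17.5% of all genes. After induction 4 were higher and 7 lower, against 17.8% and 22.9% of all genes.

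Genes known to be induced by glucocorticoids, which include dexamethasone, rose with the niche factors. 8 of 8 rose in WT and 8 of 8 in KO, against 31.6% and 36.4% of all genes. Their median log2 fold changes were 2.69 and 3.05. *Fkbp5*, for example, rose by 4.92 in WT and 4.82 in KO, *Zbtb16* by 7.36 and 7.61, *Glul* by 4.57 and 4.88, and *Tsc22d3* by 3.65 and 4.39. In KO against WT, 5 of these 8 were higher after induction, against 17.8% of all genes, and 0 were lower. The interaction passed in the higher direction for 5 of 8, against 19.4% of all genes. The part of dexamethasone in the rise of the niche factors cannot be told apart from that of the rest of the medium.

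Stromal and reticular genes split, with 12 of 20 rising and 7 falling in WT and 10 rising and 8 falling in KO. Over all tested genes 31.6% rose and 32.8% fell in WT, and 36.4% rose and about as many fell in KO. *Adipoq*, an adipocyte gene that marrow reticular cells also express, was below 0.1 RPKM in every undifferentiated library, at 7.65 and 7.78 RPKM in differentiating WT and at 11.2 and 11.9 RPKM in differentiating KO libraries. *Lpl*, the lipoprotein lipase gene, rose by 3.58 in WT and 4.59 in KO on the log2 scale and passed the interaction (1.02, adjusted p = 0.00449), whereas *Nes* (-3.19 and -4.59) and *Mcam* (-2.72 and -2.68) fell. Of 9 tested osteoblast genes 2 rose and 2 fell in WT, and 2 rose and 4 fell in KO, beside the same shares of all genes. In differentiating MSCs 0 of the 9 were higher in KO and 6 were lower, where 17.8% of all genes were higher and 22.9% lower. Among them were *Sp7* (-0.99, adjusted p = 0.00166), *Col1a1* (-0.82, adjusted p = 0.00491) and *Ibsp* (-0.997, adjusted p = 0.00146). *Ibsp* had risen with induction by 3.78 in WT and 4.11 in KO. In undifferentiated MSCs 1 of the 9 was higher in KO and 3 were lower, against 14.7% and 17.5% of all genes. The higher one was *Col1a1* (0.62, adjusted p = 0.0153), with an interaction of -1.43 (adjusted p = 0.00252). Of the 10 MSC markers 6 rose and 4 fell in WT with induction, against 31.6% and 32.8% of all genes. In KO 4 of them rose and 5 fell, where 36.4% of all genes rose and about as many fell. Genes of B cells, T cells and red cells were at 0 for 4 of 5 in every library.

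For each member, the 3 genes with the most similar pattern over the 8 libraries were sought among 12269 genes by the Pearson correlation of log2(RPKM + 0.1). The 8 libraries fall into 4 groups, so that these values describe the order and spacing of group levels. *Cxcl12* was closest to *Sesn1*, *Klf9* and *Mt1* (each r = 1.0), and *Mt1* was at 78.7 and 80.2 RPKM in undifferentiated WT, 59.0 and 61.6 in undifferentiated KO, 856 and 679 in differentiating WT, and 1237 and 1397 in differentiating KO libraries. *Angpt1* was closest to *Sspn*, *Fzd1* and *Slc7a2*, *Kitl* to *2010204K13Rik*, *Ces2g* and *Syne3*, and *Vcam1* to *Lama4* and *Arl4a* among others, all at r = 1.0 after rounding. *Ebf3* shared *Fzd1* with *Angpt1* and was also closest to *Otud7b* and *Apcdd1* (each r = 1.0). *Foxc1* was closest to *Sp4*, *Calcoco1* and *Aplp2*, and *Lepr* to *Elfn1*, *Ciz1* and *Gfpt2* (r = 0.99 or above). *Ptn* had the least similar nearest genes, *Armc10* (r = 0.99), *Atrx* (0.98) and *Mynn* (0.97), whose levels spanned a narrow range (for *Armc10* 15.5 to 18.5 RPKM).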

How the data were processed

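RNA of 8 MSC libraries, 2 for each genotype and state, was analysed from the table of gene values. The table deposited by the authors holds RPKM values, 1 for each gene in each library, made from rRNA-depleted, strand-specific single-end reads aligned to mm10 with TopHat2 2.1.0 and the iGenomes annotation and quantified with Cuffdiff of Cufflinks 2.2.1, per the labels and the study's methods. Cuffdiff's library normalization is not given in the sources used here. Groups came from the labels, and 0 columns were without a sample. Positions and promoters came from GENCODE M21 and RefSeq. *Angpt1*, *Vcam1* and *Ebf3* overlap antisense genes.

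Genes whose mean reached 0.1 RPKM (15342) were fitted as log2(RPKM + 0.1) in limma 3.58.1 (R 4.3.3) over all 8 libraries, with 1 mean per group and a variance trend (4 residual and 1.98 prior degrees of freedom). Fold changes are on this scale, which understates those of low genes. A gene passed at a Benjamini-Hochberg adjusted p under 0.05, and calls over 2-fold followed the study's limits. The comparisons, 5 in all, share libraries. Depth was estimated from steps between low values in 3471 genes with 1 transcript and 200 nt subtracted from its length. Of the low values 77.9% to 80.6% lay within 0.1 of a whole read, too few for a count test. Read numbers are therefore estimates and cover counting error only. For members the length was that of the longest annotated transcript, so reads are overstated where a shorter one was made.

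The members, the 9 gene lists and the tests were chosen with earlier results of these data known. The counts of members and of list genes beside shares of all genes are therefore descriptions. Named genes were all 8 members, the called genes of each list with the largest change (at most 4), and the 3 genes most correlated with each member at a mean of at least 1 RPKM, of which 1 is not reported here. Other pseudocounts, filters, scalings and fits, a replicate block and leaving out each library were tried (18 alternatives per comparison).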

Additional observations from a re-analysis of the deposited data

Results flagged for a closer look

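For 6 of 8 niche factors the difference between KO and WT changed with the state by the direct test in limma. All 6 passed in the higher direction, against 19.4% of all tested genes. The genotype difference in differentiating minus that in undifferentiated MSCs, on the log2 scale, was 1.19 for *Angpt1*, 1.04 for *Ptn*, 0.87 for *Cxcl12*, 0.68 for *Foxc1*, 0.48 for *Ebf3* and 0.31 for *Vcam1*. In *Angpt1*, *Ptn*, *Cxcl12* and *Foxc1* the test passed with each library left out in turn, while *Ebf3* and *Vcam1* lost the call in some of these fits. Groups of 2 libraries do not allow a search for an outlying library.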

How the results depend on the processing

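No direction of a member was reversed. Of 352 log2 fold changes of members under the other settings 342 kept their direction and their side of the threshold, 9 lost the call and 1 gained it; of 320 with a library left out 283 kept both, 35 lost the call and 2 gained it. With no fold limit 7 members were called in undifferentiated and 7 in differentiating KO against WT, 8 with induction in WT, 8 in KO and 6 in the interaction. Of all 15342 tested genes, 4943, 6251, 9882, 11186 and 6048 were called in the same order of comparisons. The interaction had 1 member over 2-fold with a pseudocount of 1, and 1 to 2 with a library left out; *Ptn* lies near the limit. With induction in KO 6 members were called with a pseudocount of 0.01, with quantile normalization, and without replicate 1 of undifferentiated KO or replicate 1 of differentiating KO. Leaving out a library leaves a group of 1, whose spread is assumed to be that of the other groups, and fewer samples.

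Same-numbered libraries of different groups deviated from their group means with correlations of -0.0924 to 0.0304 over 15342 genes, low ones included. Over these genes the log2 difference between the 2 libraries of a group had a standard deviation of 0.81 to 0.93. At 1 RPKM or more, the median coefficient of variation within a group was only 2.23% to 4.77%. Whether replicate numbers pair the libraries was not tested on genes with higher levels alone. With the replicate block, 0 members were called over 2-fold in either genotype comparison, 4 and 5 with induction in WT and KO, and 2 in the interaction, and the adjusted p rose to 0.0535 for *Cxcl12* and 0.0654 for *Lepr* in undifferentiated MSCs and to 0.0513 for *Vcam1* in differentiating MSCs. Quantile normalization also moved *Cxcl12* (0.0739) and *Lepr* (0.0633) in undifferentiated MSCs and *Lepr* with induction in WT (0.0675) past the threshold; the cause was not tested. *Lepr* in undifferentiated MSCs missed it as well with a pseudocount of 1 (0.0604) and with no filter (0.0579), *Vcam1* in differentiating MSCs with only the libraries compared (0.0689), and *Vcam1* in undifferentiated MSCs passed it with median centring (0.0459).

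Over all genes the calls depended more on settings. Undifferentiated KO against WT had 261 called genes, but 402 with a pseudocount of 0.01, 99 with 1, 166 at a mean of at least 1 RPKM and 4943 with no fold limit. With a pseudocount of 1 and with no fold limit, differentiating KO against WT went from 507 to 234 and 6251, induction from 2198 to 1249 and 9882 in WT and from 3511 to 2267 and 11186 in KO, and the interaction from 947 to 479 and 6048. Depth limits *Ptn* and *Lepr* most, with the fewest estimated reads.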
